A study of Mus musculus with 12 samples.

Results

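YAP and TAZ, encoded by *Yap1* and *Wwtr1*, are transcriptional co-activators that bind DNA through the TEAD transcription factors and are restrained by the Hippo kinases. When the LATS kinases phosphorylate them, YAP and TAZ are held in the cytoplasm. When they enter the nucleus they switch on genes of the extracellular matrix, the cytoskeleton and cell growth, and they are studied in the kidney for their part in tubular repair, fibrosis and cyst growth. Because both co-activators are controlled largely by phosphorylation and localization, RNA levels report on the abundance of their transcripts and of their targets and not on their activity directly.

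The transcripts of 10 genes of the pathway were followed, listed by symbol with earlier results of these data known. They were the co-activators *Yap1* and *Wwtr1*, the DNA-binding partners *Tead1*, *Tead2* and *Tead3*, the inhibitory kinase *Lats2*, the junctional regulator *Amotl2*, and the secreted matricellular proteins *Ctgf* and *Cyr61* and the nuclear and sarcomeric protein *Ankrd1*, which are widely used readouts of YAP/TAZ. *Lats2* and *Amotl2* are themselves known as targets and so belong to a negative feedback. Each symbol had a single row among the 35275 genes of the deposited table, and all 10 were abundant enough to be tested in every comparison.

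Kidney tissue of 12 C57BL/6J mice was compared at 6 months of age. WT mice carried no engineered allele, RC/RC mice were homozygous for a knock-in missense allele of *Pkd1* that lowers polycystin-1 function and causes slow cyst growth, and RC/RC:*Casp1*KO mice carried in addition, in every cell, a homozygous TALEN deletion at the end of exon 6 of *Casp1*, the inflammasome protease. Each group held 4 mice, with 2 females among them, and the *Casp1* allele was a single deletion bred to homozygosity. Sequencing of poly(A) RNA gave between 18019819 and 24869454 counted reads per mouse.

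*Casp1* itself averaged 1.51 ± 0.366 CPM (counts scaled to a common library size) in WT, 3.52 ± 0.703 in RC/RC and 0.690 ± 0.271 in RC/RC:*Casp1*KO kidneys (mean ± SD, n = 4 mice in each). The deletion removes only part of the transcript, so that reads elsewhere in the gene are still counted. *Casp1* was 5.09-fold lower in RC/RC:*Casp1*KO than in RC/RC mice (edgeR quasi-likelihood test, Benjamini-Hochberg adjusted p = 0.00514). *Pkd1*, whose knock-in allele is transcribed, was not called in any comparison.

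Kidney tissue RNA is a mixture of cell types, and in such samples fewer cells of a type and less RNA per cell cannot be told apart. Kidney markers fitted the labelled tissue, with *Slc34a1*, the phosphate transporter of proximal tubule, at 5842 ± 813 CPM in WT. Interstitial markers differed between the groups. The summed level of 8 fibroblast markers was 269 ± 40.0 CPM in WT, 1252 ± 461 in RC/RC and 457 ± 189 in RC/RC:*Casp1*KO mice, with the collagen gene *Col3a1* the most abundant. All 8 of them rose in RC/RC mice, and 6 of the 8 fell in RC/RC:*Casp1*KO relative to RC/RC mice. Of all genes tested, 9.76% were called higher in the first and 4.41% lower in the second of these comparisons. One RC/RC mouse stood above the other 3 with a fibroblast marker sum of 1905 CPM and a smooth muscle marker sum of 696 CPM, although its gaps to the next mouse, 0.663 and 0.741 of the group's range, were under the critical value of Dixon's criterion for 4 samples. This mouse also had the highest podocyte and endothelial sums of the RC/RC mice, 695 and 1156 CPM, the lowest proximal tubule sum, 6458 CPM, and the smallest library and highest mitochondrial share of the 12 mice, 18019819 reads and 12.1%. Without it 6 fibroblast markers passed in RC/RC against WT mice and 1 in RC/RC:*Casp1*KO against RC/RC mice, where the median log2 fold change of the 8 was still -1.19. The RC/RC sums were then 1035 ± 186 CPM for fibroblast and 316 ± 57.5 CPM for smooth muscle markers (n = 3). The mouse that stood apart was also the RC/RC mouse with the highest *Ctgf*, *Ankrd1*, *Tead2*, *Lats2*, *Tead3* and, by a small margin, *Wwtr1*, and the one with the lowest *Cyr61* and *Tead1*. The counts of called genes below are given also without this mouse where it changed them. With it left out, 8.22% of all genes were called in RC/RC against WT mice and 4.79% in RC/RC:*Casp1*KO against RC/RC mice, and leaving out any single mouse of the latter comparison moved the number called to between 438 and 2789 from 1797. Within WT and within RC/RC:*Casp1*KO mice, 2 pairs of mice had closer counts than the other 4 pairs of each group. Their chi-square per degree of freedom was 16.4 and 17.7 in WT, and 15.7 and 31.8 in RC/RC:*Casp1*KO mice. The other pairs of these groups were at 67.1 or more. In RC/RC mice no such split was seen, with the 2 closest pairs at 37.2 and 67.6 and the other 4 from 69.7. No fit held sex as a term, so the spread within a group includes any difference between the sexes.

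The first question was which parts of the pathway differ between cystic and normal kidneys. In RC/RC relative to WT mice, 4 of the 10 genes rose and none fell, namely *Cyr61*, *Ankrd1*, *Tead2* and *Amotl2*. With the RC/RC mouse that stood apart left out, 3 were called, and *Amotl2* was not, at a log2 fold change of 0.43 (edgeR quasi-likelihood adjusted p = 0.0759). Across all 15243 genes tested, 12.9% were called in either direction and 9.76% were called higher. For 7 of the 10 genes every RC/RC mouse lay above every WT mouse, against 12.7% of all genes. The median log2 fold change of the 10 genes was 0.38, compared with -0.02 over all genes.

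**Figure D1:**
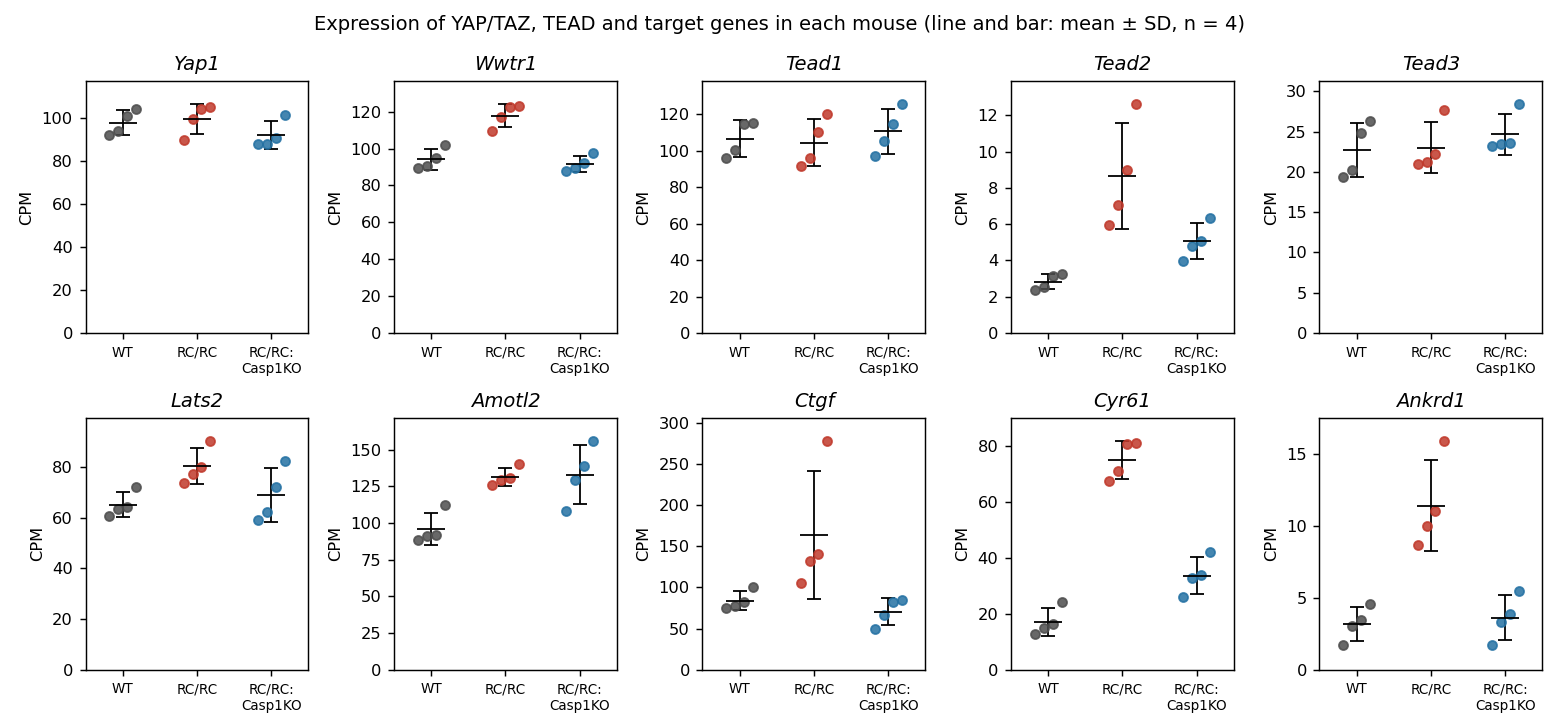
Level of each of the 10 genes in each mouse, in CPM scaled with TMM factors, on linear axes that start at 0. Points are mice, grouped as WT (grey), RC/RC (red) and RC/RC:*Casp1*KO (blue), and the horizontal lines and bars are the mean ± SD of 4 mice. *Cyr61* separates the 3 groups completely, with means of 17.0, 75.0 and 33.6 CPM, whereas *Yap1*, *Tead1* and *Tead3* overlap across all groups.

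The secreted target *Cyr61* gave the clearest difference. It measured 12.7, 14.8, 16.4 and 24.1 CPM in the 4 WT mice and 67.5, 71.0, 80.7 and 80.9 CPM in the 4 RC/RC mice. The lowest RC/RC mouse therefore lay far above the highest WT mouse. *Cyr61* was 4.38-fold higher in RC/RC mice, a log2 fold change of 2.13 with a standard error of 0.194 (edgeR quasi-likelihood test, adjusted p = 0.000339). It was called with each mouse left out in turn.

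*Ankrd1*, an ankyrin repeat protein induced by YAP/TAZ and by mechanical load, was a scarce transcript, covered by 31 to 303 reads per mouse. It was present at 1.73, 3.01, 3.45 and 4.59 CPM in WT and at 8.68, 9.96, 11.1 and 15.9 CPM in RC/RC mice. The groups did not overlap, and *Ankrd1* was 3.55-fold higher in RC/RC mice (log2 fold change 1.83, SE 0.306, edgeR quasi-likelihood adjusted p = 0.00527). Without the RC/RC mouse that stood apart the log2 fold change was 1.60 and the gene was still called. Because *Ankrd1* is known above all from striated muscle, muscle markers were examined beside it. Summed over 8 striated muscle genes they reached 3.41 ± 1.63 CPM in WT mice, 4.72 ± 4.07 CPM in RC/RC mice and 6.42 ± 5.59 CPM in RC/RC:*Casp1*KO mice, with *Myh1* the most abundant and *Ckm* and *Myh4* at 3 or fewer reads in every mouse. The RC/RC mouse with the highest *Ankrd1* had a muscle sum of 7.26 CPM, and the other RC/RC mice had 1.24, 1.29 and 9.11 CPM. The part of muscle RNA in the *Ankrd1* level was not tested.

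*Ctgf*, a secreted matricellular protein and profibrotic factor, was more variable. The WT mice measured 75.5, 76.8, 82.5 and 100.2 CPM and the RC/RC mice 105.1, 132.3, 140.5 and 278.1 CPM. All RC/RC mice lay above all WT mice, but the lowest of them by only a small margin, and the highest was the mouse with the largest fibroblast and smooth muscle marker sums. The log2 fold change was 0.97 with a standard error of 0.282, and *Ctgf* missed the threshold (edgeR quasi-likelihood adjusted p = 0.0525). Without that mouse the log2 fold change was 0.56 (adjusted p = 0.0642).

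Of the feedback genes, *Amotl2* rose and *Lats2* was not called. *Amotl2*, an angiomotin family protein that binds YAP and holds it at junctions, was at 88.7, 91.1, 91.8 and 112.1 CPM in WT and at 125.8, 129.0, 130.8 and 140.2 CPM in RC/RC mice. It was 1.36-fold higher without overlap (log2 fold change 0.45, SE 0.114, edgeR quasi-likelihood adjusted p = 0.0320), although in 6 of the 8 fits that left out 1 mouse it missed the threshold, at adjusted p up to 0.101. *Lats2*, which phosphorylates YAP and TAZ, was at 60.7, 63.6, 64.3 and 72.1 CPM in WT and at 73.9, 77.4, 79.9 and 90.5 CPM in RC/RC mice. The groups again did not overlap, but the log2 fold change of 0.30 (SE 0.103) was not called (edgeR quasi-likelihood adjusted p = 0.0903). The annotated span of *Lats2* overlaps that of the nuclear export gene *Xpo4* on the same strand by 23354 bases. *Xpo4* had a log2 fold change of -0.44 (edgeR quasi-likelihood adjusted p = 0.155), and the effect of the overlap on the *Lats2* counts was not tested. In a later GENCODE annotation 2742 bases of a *Lats2* transcript are also identical to one of the predicted gene *Gm49361*.

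**Figure D2:**
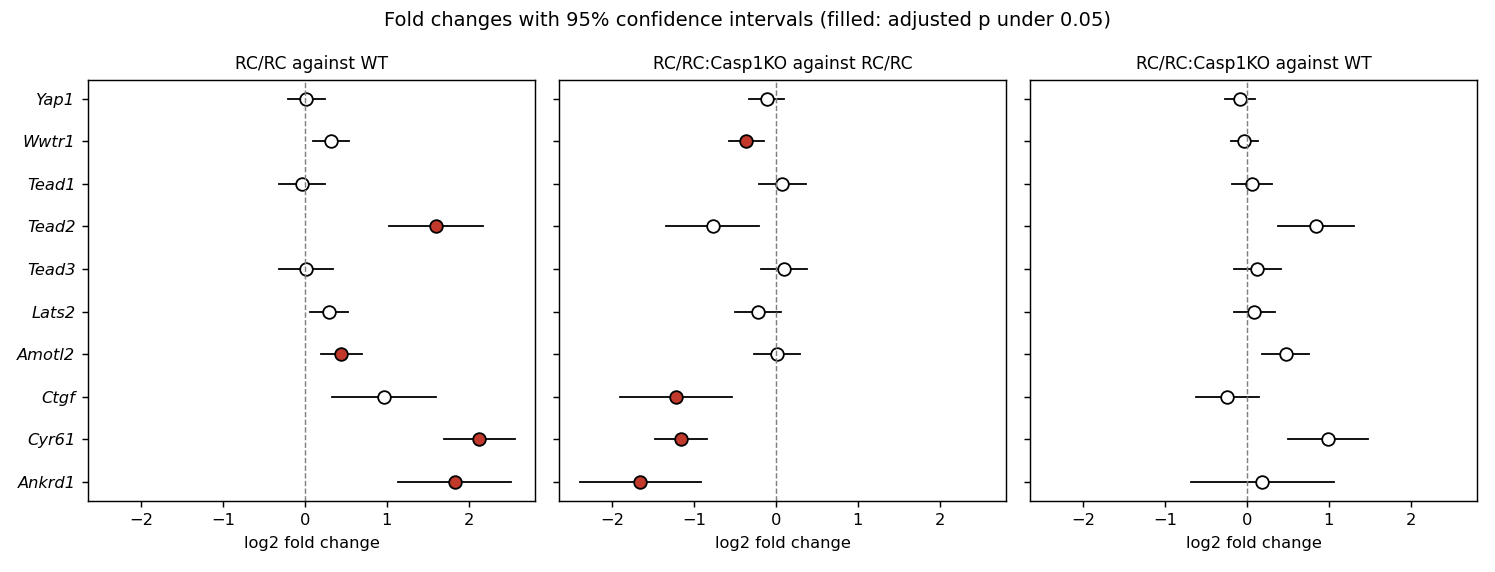
Log2 fold change of each of the 10 genes with its 95% confidence interval in the 3 comparisons, from edgeR's quasi-likelihood fits of 8 mice each. Filled points passed an adjusted p of 0.05 over all genes tested. In RC/RC against WT 4 genes are filled, all above 0, and in RC/RC:*Casp1*KO against RC/RC 4 are filled, all below 0, while none is filled in RC/RC:*Casp1*KO against WT.

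The 2 co-activators differed from each other. *Yap1* measured 92.1, 93.7, 100.6 and 104.2 CPM in WT and 89.7, 99.2, 103.8 and 104.9 CPM in RC/RC mice, so that the groups overlapped over nearly their whole range. Its log2 fold change was 0.02, with a 95% confidence interval from -0.20 to 0.24. *Wwtr1* measured 89.5, 90.4, 95.02 and 102.1 CPM in WT and 109.3, 117.0, 122.3 and 122.9 CPM in RC/RC mice. Every RC/RC mouse exceeded every WT mouse, yet the log2 fold change of 0.32 (SE 0.0982) missed the threshold in the fit of these 8 mice (edgeR quasi-likelihood adjusted p = 0.0640).

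A ratio of both transcripts within a mouse does not depend on library scaling. On a per-length scale (FPKM, in which CPM is divided by gene length) the *Wwtr1* to *Yap1* ratio was 1.01, 1.09, 1.101 and 1.14 in WT mice and 1.24, 1.31, 1.33 and 1.47 in RC/RC mice. It was 1.08, 1.11, 1.12 and 1.18 in RC/RC:*Casp1*KO mice. The RC/RC mice lay above all the other mice, and the WT and RC/RC:*Casp1*KO mice overlapped. In two-sided exact permutation tests with 4 mice in each group, the log2 ratio was higher in RC/RC than in WT mice by 0.30 (p = 0.0286, adjusted over the 3 comparisons to 0.0429). It was lower in RC/RC:*Casp1*KO than in RC/RC mice, with a difference of -0.25 (exact permutation p = 0.0286, adjusted p = 0.0429). These are the smallest p-values that 4 against 4 mice allow. RC/RC:*Casp1*KO and WT mice differed by 0.05 (exact permutation p = 0.343, also after adjustment).

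**Figure D3:**
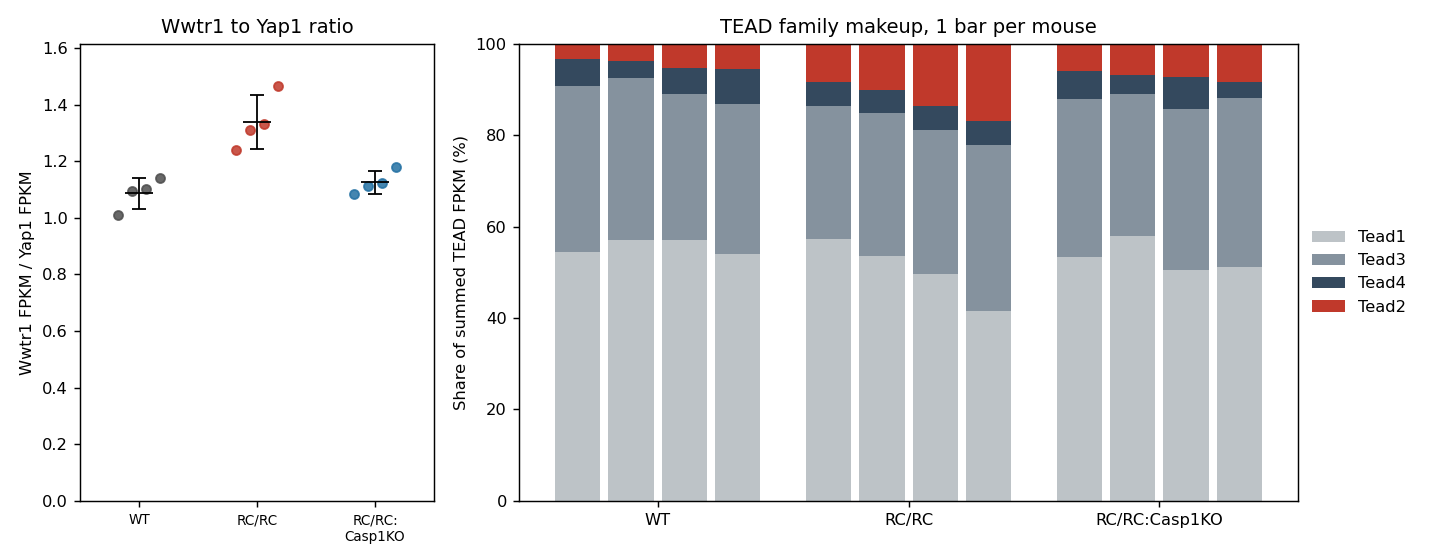
Left, the ratio of *Wwtr1* to *Yap1* FPKM in each mouse with the group mean ± SD (n = 4), on a linear axis from 0. Right, the share of each TEAD gene in the summed FPKM of *Tead1* to *Tead4*, with 1 bar per mouse ordered within a group by the *Tead2* share, which averages 4.42% in WT, 12.2% in RC/RC and 7.13% in RC/RC:*Casp1*KO mice.

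Among the DNA-binding partners *Tead2* alone was called in RC/RC against WT mice. *Tead2*, best known as the TEAD of embryonic and progenitor cells, was at 2.40, 2.53, 3.16 and 3.25 CPM in WT and at 5.97, 7.06, 8.96 and 12.6 CPM in RC/RC mice. The groups did not overlap, and the level was 3.03-fold higher in RC/RC mice (log2 fold change 1.60, SE 0.259, edgeR quasi-likelihood adjusted p = 0.00448). Without the RC/RC mouse that stood apart, which was the highest, the log2 fold change was 1.33 and still called. *Tead2* is covered by only 48 to 240 reads per mouse, and its annotated span overlaps that of the leukocyte gene *Cd37* on the opposite strand by 4 bases. In the later GENCODE annotation transcripts of *Tead2* and *Cd37* share 223 identical bases. *Cd37* rose as well (log2 fold change 1.40, edgeR quasi-likelihood adjusted p = 0.0150), and whether any reads were shared was not tested. *Yap1*, *Ankrd1*, *Cyr61* and *Ctgf* share 117 to 354 identical bases with transcripts of predicted genes in that annotation.

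*Tead1* and *Tead3*, the TEADs with the highest levels per length in these kidneys, overlapped between the groups. *Tead1* ranged from 95.9 to 115.3 CPM in WT and from 91.5 to 119.8 CPM in RC/RC mice, and the 95% confidence interval of its log2 fold change ran from -0.32 to 0.24. *Tead3* ranged from 19.4 to 26.3 CPM in WT and from 20.9 to 27.7 CPM in RC/RC mice, with an interval from -0.32 to 0.34. *Tead4*, the remaining family member, had a log2 fold change of -0.03. Per length, *Tead1* made up 55.7% of summed TEAD expression in WT, 50.5% in RC/RC and 53.3% in RC/RC:*Casp1*KO mice. The *Tead2* share ran from 3.35% to 5.37% in WT, from 8.36% to 16.8% in RC/RC and from 5.95% to 8.35% in RC/RC:*Casp1*KO mice, with no overlap between the groups.

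The next question was how loss of *Casp1* altered these genes in cystic kidneys. In RC/RC:*Casp1*KO relative to RC/RC mice, 4 of the 10 genes fell and none rose, namely *Ankrd1*, *Ctgf*, *Cyr61* and *Wwtr1*. Across the 15428 genes tested, 11.6% were called and 4.41% were called lower. For the same 4 genes the RC/RC:*Casp1*KO values were all lower than the lowest RC/RC value, against 9.18% of all genes. The median log2 fold change of the 10 genes was -0.29, against -0.03 over all genes. The RC/RC mice are shared with the previous comparison, so the values of both comparisons are not independent.

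*Cyr61* was at 25.9, 32.9, 33.7 and 41.99 CPM in the RC/RC:*Casp1*KO mice, all below the RC/RC range and all above the WT range. It was 2.23-fold lower than in RC/RC mice (log2 fold change -1.16, SE 0.143, edgeR quasi-likelihood adjusted p = 0.00340), and this call held with each mouse left out in turn. *Ankrd1* was at 1.72, 3.31, 3.89 and 5.50 CPM, a range that overlapped WT and lay wholly below RC/RC. It was 3.15-fold lower (log2 fold change -1.66, SE 0.330, edgeR quasi-likelihood adjusted p = 0.0186), and it missed the threshold in 3 of the 8 fits that left out 1 mouse.

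*Ctgf* was at 49.8, 65.9, 81.9 and 84.4 CPM in RC/RC:*Casp1*KO mice, and 2 of the 4 lay below every WT mouse. It was 2.33-fold lower than in RC/RC mice (log2 fold change -1.22, SE 0.305, edgeR quasi-likelihood adjusted p = 0.0366). Without the RC/RC mouse that stood apart the log2 fold change was -0.81 and the adjusted p was 0.0503. *Wwtr1* was at 87.8, 89.6, 92.2 and 97.7 CPM, within the WT range apart from the lowest mouse, and 1.29-fold lower than in RC/RC mice (log2 fold change -0.36, SE 0.0953, edgeR quasi-likelihood adjusted p = 0.0413). The calls of *Wwtr1* and *Ctgf* were close to the threshold, since with 1 mouse left out *Wwtr1* was called in only 1 of 8 fits and *Ctgf* in 2 of 8. Without the RC/RC mouse that stood apart only *Cyr61* and *Ankrd1* were called, and 0.864% of all genes were called lower.

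The other 6 genes were not called in this comparison. *Amotl2* overlapped its RC/RC level, at 107.9, 129.1, 138.5 and 156.1 CPM, with a log2 fold change of 0.02 and a 95% confidence interval from -0.26 to 0.29. *Tead2* was at 3.99, 4.79, 5.08 and 6.36 CPM, between WT and RC/RC, and overlapped the latter only by its highest mouse (log2 fold change -0.77, SE 0.255, edgeR quasi-likelihood adjusted p = 0.0756). *Lats2* spread from 59.1 to 82.6 CPM, across both other groups. *Yap1*, *Tead1* and *Tead3* had log2 fold changes of -0.11, 0.08 and 0.10.

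The last comparison asked how far RC/RC:*Casp1*KO kidneys still differed from normal ones. None of the 10 genes was called in RC/RC:*Casp1*KO against WT mice by edgeR's quasi-likelihood test, where 2.03% of 15346 genes were called, although 3 had an unadjusted p under 0.05 and DESeq2 called those same 3. They were *Cyr61* (log2 fold change 0.99, SE 0.218, adjusted p = 0.0562), *Tead2* (0.84, SE 0.204, adjusted p = 0.0759) and *Amotl2* (0.47, SE 0.128, adjusted p = 0.0967). *Cyr61* and *Tead2* did not overlap between the groups, with RC/RC:*Casp1*KO mice higher, a pattern seen in 7.47% of all genes. The remaining log2 fold changes ran from -0.24 for *Ctgf* to 0.19 for *Ankrd1*.

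Compared per length, the order of the 10 transcripts differed between the groups. In WT kidneys *Ctgf* was highest at 33.6 ± 4.57 FPKM, followed by *Amotl2* at 21.7, *Wwtr1* at 20.1 and *Yap1* at 18.5 FPKM. The mice of *Amotl2* and *Wwtr1* overlapped, as did those of *Wwtr1* and *Yap1*. *Lats2* at 12.6, *Tead1* at 10.7, *Cyr61* at 8.38 and *Tead3* at 6.59 FPKM followed, and *Ankrd1* at 1.81 and *Tead2* at 0.835 FPKM were lowest. *Cyr61* overlapped both *Tead1* and *Tead3* in this order, whereas the other neighbours among these genes did not overlap. In RC/RC kidneys *Cyr61* moved from the seventh place to the second, at 37.0 ± 3.37 FPKM, behind *Ctgf* at 65.9 ± 31.1 FPKM and without overlap between them. *Amotl2* was highest in RC/RC:*Casp1*KO kidneys at 30.0 FPKM, *Ctgf* followed at 28.3 FPKM, a gap within their spread, and *Cyr61* stood at 16.6 FPKM.

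To set the target genes beside their DNA, promoter windows of RefSeq (build GRCm38.p6) were searched for the core letters bound by TEADs, GGAATG, on either strand over the 250 bases upstream of the transcript start. These windows were found for 8 of the 10 genes, and *Tead1* and *Ctgf* were not among them. The letters occurred in 6 of the 8, namely *Yap1*, *Wwtr1*, *Tead3*, *Amotl2*, *Cyr61* and *Ankrd1*, whereas 14.4% of all 27025 genes with a window held them. The genes were chosen as members and known targets of the pathway, so this contrast is not a test. The 8 genes also had 12 windows, against 32851 for the 27025 genes, and more windows per gene give more places to match. The windows of the 3 genes that fell in RC/RC:*Casp1*KO mice and could be matched are shown on the gene's own strand, with the letters GGAATG or their reverse complement in capitals. All 3 genes lie on the minus strand.

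Cyr61, chr3:145649986-145650235: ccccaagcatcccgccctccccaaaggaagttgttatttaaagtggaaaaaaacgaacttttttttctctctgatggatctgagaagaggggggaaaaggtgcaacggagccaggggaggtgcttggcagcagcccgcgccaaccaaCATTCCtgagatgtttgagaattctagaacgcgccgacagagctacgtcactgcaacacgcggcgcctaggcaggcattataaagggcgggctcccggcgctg
Ankrd1, chr19:36119845-36120094: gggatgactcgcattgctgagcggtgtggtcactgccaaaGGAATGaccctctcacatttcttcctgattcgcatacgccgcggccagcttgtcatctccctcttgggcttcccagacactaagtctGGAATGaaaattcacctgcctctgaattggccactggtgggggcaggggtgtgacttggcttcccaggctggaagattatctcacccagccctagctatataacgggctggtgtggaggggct
Wwtr1, chr3:57575911-57576160: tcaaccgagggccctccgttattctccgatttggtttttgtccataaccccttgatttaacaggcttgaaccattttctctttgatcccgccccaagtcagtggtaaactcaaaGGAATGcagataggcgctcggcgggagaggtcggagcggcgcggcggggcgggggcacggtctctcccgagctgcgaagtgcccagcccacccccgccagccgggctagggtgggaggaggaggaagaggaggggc

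Counted from the transcript start, the letters lie at -103 to -98 in *Cyr61*, at -210 to -205 and -123 to -118 in *Ankrd1*, and at -136 to -131 in *Wwtr1*, or at -170 to -165 from a second annotated start of that gene. *Yap1* and *Tead3*, which overlapped between all groups, held the letters too, and *Tead2* and *Lats2* did not hold them in these windows. The AP-1 letters TGANTCA were in none of the windows of the 8 genes, against 7.82% of all genes, and the CArG box was in none, against 1.62%. A match is a description of the sequence and no binding was measured.

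The genes around the pathway were examined next, beginning with 25 Hippo kinases, scaffolds and TEAD partners, of which 24 could be tested. In RC/RC against WT mice 5 rose and none fell, at a median log2 fold change of 0.19. Of all genes tested, 9.76% were called higher and 12.9% in either direction. *Vgll3*, a TEAD co-factor that competes with YAP/TAZ, rose by 0.93 (edgeR quasi-likelihood adjusted p = 0.0293). *Frmd6*, a scaffold upstream of the kinases, rose by 0.78, the giant protocadherin *Dchs1* by 0.70, the LATS inhibitor *Ajuba* by 0.65 and the LATS-activating kinase *Map4k4* by 0.61 on the log2 scale. Only *Ajuba* and *Frmd6*, 2 of the 24, were called without the RC/RC mouse that stood apart, where 8.22% of all genes were called. In that fit *Vgll3*, *Dchs1* and *Map4k4* had log2 fold changes of 0.77, 0.53 and 0.44.

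No gene of the core kinase cassette was called in this comparison. *Lats1* had a log2 fold change of 0.06, the MST kinases *Stk3* and *Stk4* of 0.04 and -0.02, and the upstream tumour suppressor *Nf2* of -0.06. *Sav1*, the scaffold of the MST kinases, had a log2 fold change of 0.29 (edgeR quasi-likelihood adjusted p = 0.0937) and *Vgll4*, a TEAD co-repressor, of 0.47 (adjusted p = 0.157).

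With *Casp1* lost, 1 of the 24 genes rose and 1 fell relative to RC/RC mice, with a median of -0.08. Across all genes 11.6% were called in this comparison and 4.41% were called lower. *Vgll3* fell by 0.94 (edgeR quasi-likelihood adjusted p = 0.0388) and *Taok2*, a kinase upstream of MST, rose by 0.43 (adjusted p = 0.0202). *Taok2* was called also without the RC/RC mouse that stood apart, and *Vgll3*, at a log2 fold change of -0.79, was not (edgeR quasi-likelihood adjusted p = 0.108). *Sav1* had a log2 fold change of -0.32 that missed the threshold (adjusted p = 0.0637), and *Lats1*, *Stk3*, *Stk4*, *Nf2*, *Tead4* and *Vgll4* ranged from -0.25 to 0.17. The protocadherin *Fat4* alone was called in RC/RC:*Casp1*KO against WT mice, with a log2 fold change of 1.08 (edgeR quasi-likelihood adjusted p = 0.0449). *Fat4* was also higher in RC/RC than in WT mice, by 0.92, but narrowly missed the threshold there (adjusted p = 0.0528).

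**Figure D4:**
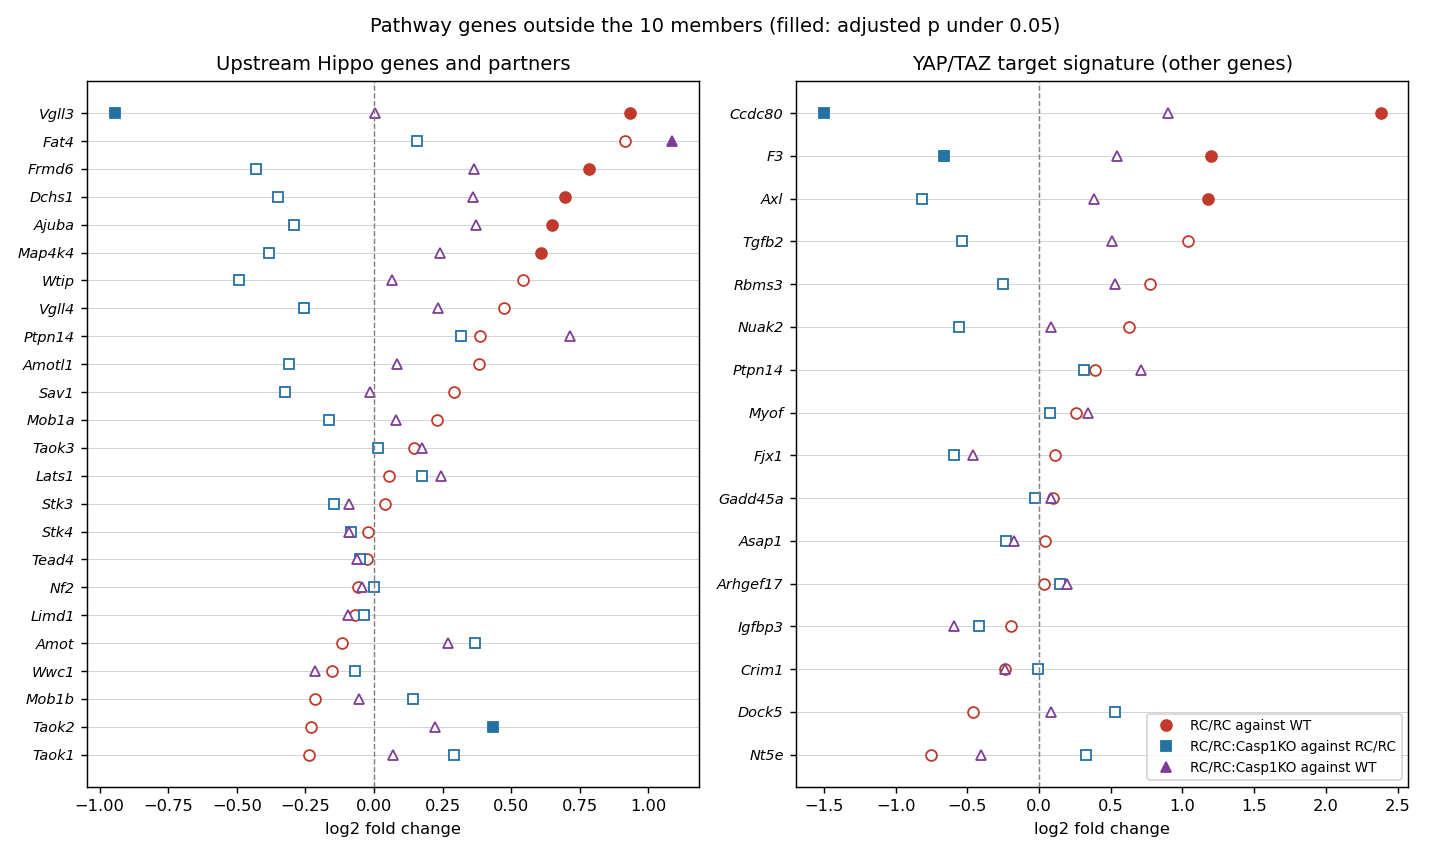
Log2 fold changes of 24 Hippo pathway genes and TEAD partners (left) and 16 further genes of a published YAP/TAZ target signature (right) in the 3 comparisons, marked by circles, squares and triangles, with filled symbols for an adjusted p under 0.05. Genes are ordered by RC/RC against WT. Most symbols are open, and the filled circles, 5 on the left and 3 on the right, all lie above 0.

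A published signature of YAP/TAZ target genes contributed 17 genes beyond the 10, and 16 of them could be tested. In RC/RC against WT mice 3 rose and 13 were not called, with a median log2 fold change of 0.18. Of all genes tested, 9.76% were called higher. *Ccdc80*, a secreted matrix protein, rose by 2.38 (edgeR quasi-likelihood adjusted p = 0.000979), *F3*, tissue factor, by 1.20 (adjusted p = 0.000296) and *Axl*, a receptor tyrosine kinase, by 1.18 (adjusted p = 0.00315). These 3 were called also without the RC/RC mouse that stood apart, where *Ccdc80* rose by 1.99.

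When *Casp1* was absent, 2 of the 16 fell relative to RC/RC mice, against 4.41% of all genes called lower. They were *Ccdc80*, which was 2.83-fold lower (edgeR quasi-likelihood adjusted p = 0.0302), and *F3*, with a log2 fold change of -0.67 (adjusted p = 0.0221). Neither was called without the RC/RC mouse that stood apart, where 0.864% of all genes were called lower. Their log2 fold changes were then -1.11 for *Ccdc80* (edgeR quasi-likelihood adjusted p = 0.0644) and -0.64 for *F3* (adjusted p = 0.0512). *Axl* missed the threshold at a log2 fold change of -0.81 (adjusted p = 0.0512), and the median was -0.24. None of the 16 was called in RC/RC:*Casp1*KO against WT mice, at a median of 0.14.

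The study itself named *Cyr61*, *Ctgf* and 7 further genes as targets of YAP or of YAP and MYC. It took targets from published work and listed those that changed in these same libraries. The direction of these genes in these libraries is therefore not independent evidence. The paper also measured these genes by qRT-PCR in female kidneys. In males it reported no effect of *Casp1* loss on *Myc*, *Ctgf*, *Axl* or *Tnfrsf12a*. Its Western blots showed more YAP protein in RC/RC than in WT females, and less in most RC/RC:*Casp1*KO females. The values here pool both sexes. All 7 further genes rose in RC/RC against WT mice, where 9.76% of all genes were called higher. Their median log2 fold change was 1.45, led by the matrix protein *Smoc2* at 3.86, the alarmin *Il33* at 1.54, the sodium pump regulator *Fxyd1* at 1.47 and the growth regulator *Myc* at 1.45. In RC/RC:*Casp1*KO against RC/RC mice 5 of the 7 fell, with *Smoc2* at -1.87, *Il33* at -1.48, the TWEAK receptor *Tnfrsf12a* at -1.26, *Myc* at -1.23 and the calcium-binding protein *S100a11* at -1.04. Of all genes, 4.41% were called lower there. Without the RC/RC mouse that stood apart all 7 still rose against WT, with *Fxyd1* at 0.79 in place of 1.47, and 4 fell in RC/RC:*Casp1*KO mice, *Myc* no longer passing at -1.07 (edgeR quasi-likelihood adjusted p = 0.0512). Without that mouse 8.22% of all genes were called in RC/RC against WT mice, and 0.864% were called lower in RC/RC:*Casp1*KO against RC/RC mice. With all mice, *Axl* and *Fxyd1* did not pass, the latter at -1.20 (edgeR quasi-likelihood adjusted p = 0.0876) and at -0.53 without that mouse. *Smoc2* alone was still called against WT in RC/RC:*Casp1*KO mice, at 2.01 (adjusted p = 0.0226).

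Markers of macrophages, smooth muscle and endothelium were examined beside these genes. Across all genes 9.76% were called higher in RC/RC against WT mice, and 4.41% were called lower in RC/RC:*Casp1*KO against RC/RC mice. Of 8 macrophage markers 7 rose in RC/RC mice and 3 fell in RC/RC:*Casp1*KO relative to RC/RC mice, with summed levels of 153 ± 14.8, 362 ± 53.9 and 243 ± 78.8 CPM in the 3 groups and *Csf1r* the most abundant. The 7 were called also without the RC/RC mouse that stood apart, whereas the 3 were not, at log2 fold changes of -1.13 for *C1qa*, -1.002 for *Cd14* and -1.04 for *C1qb* against -1.22, -1.12 and -1.09 with all mice. Of 8 smooth muscle markers 2 rose and 3 fell, with sums of 227 ± 22.4, 411 ± 196 and 200 ± 12.5 CPM and *Smtn* the most abundant. No endothelial marker was called in RC/RC mice and 1 fell in RC/RC:*Casp1*KO mice, *Plvap*, the most abundant of them, which was not called without that mouse (log2 fold change -0.56 against -0.80).

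Epithelial markers were examined in the same way. Proximal tubule markers summed to 17036 ± 4403, 11254 ± 4414 and 16716 ± 3064 CPM in the 3 groups. In RC/RC against WT mice 2 of 8 were lower (1 without the RC/RC mouse that stood apart), against 3.18% of all genes. The median log2 fold change of the 8 was -0.62. In RC/RC:*Casp1*KO against RC/RC mice 2 of 8 were higher, as were 1116 of all 15428 genes. Collecting duct markers, led by *Aqp2*, had no call among the 7 tested, and of the podocyte markers, led by *Podxl*, 1 of 8 was lower in RC/RC mice and none was called in RC/RC:*Casp1*KO against RC/RC mice. Of these marker lists, no gene was at 0 in every mouse. The part of these shifts in the levels of *Cyr61*, *Ctgf*, *Ankrd1* and *Tead2* was not tested.

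**Figure D5:**
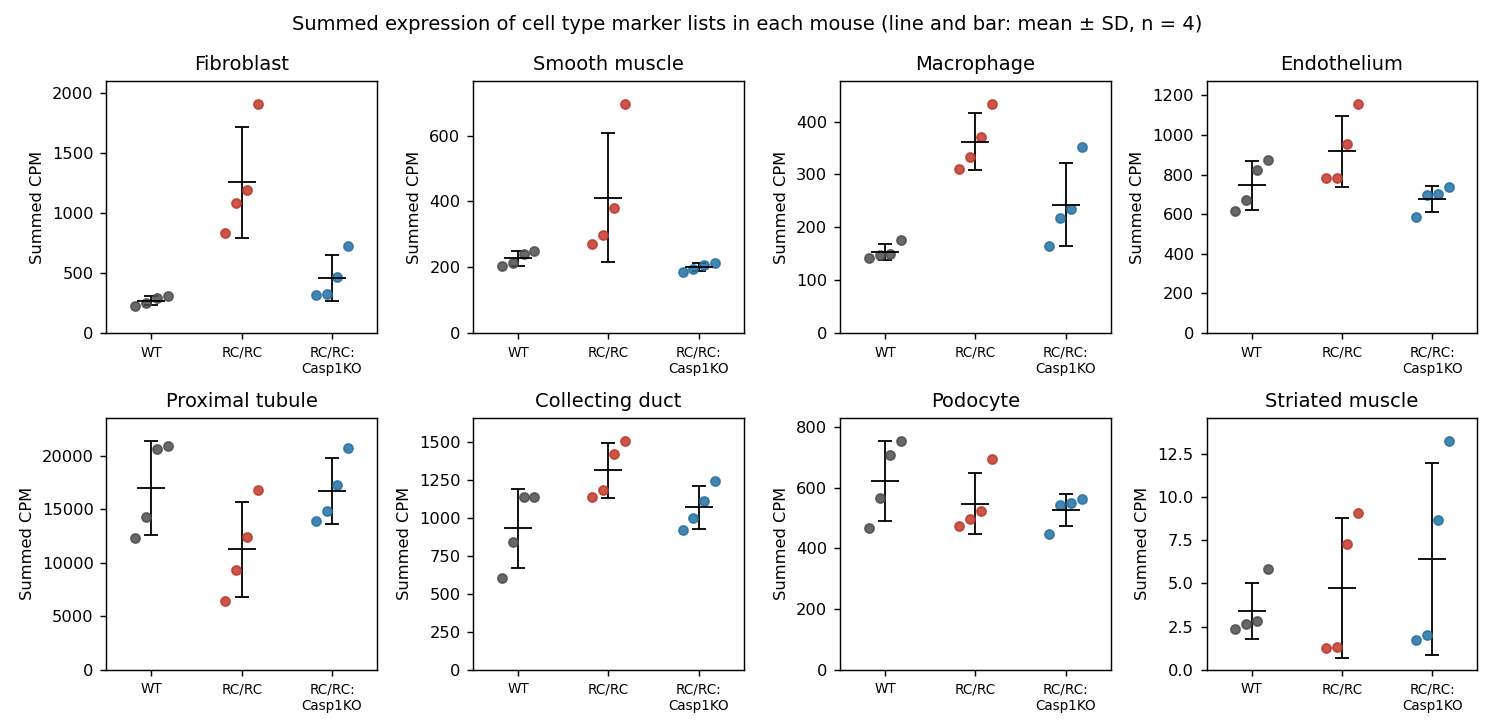
Summed CPM of 8 marker lists of 8 genes each, per mouse, with the group mean ± SD (n = 4), on linear axes from 0. Points are WT (grey), RC/RC (red) and RC/RC:*Casp1*KO (blue) mice. The fibroblast and macrophage sums of all RC/RC mice lie above those of all WT mice, and the highest fibroblast and smooth muscle sums belong to the same RC/RC mouse.

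Across the 12 mice the levels of the 10 genes were related to the marker sums to different degrees. Pearson's r between log2 CPM and the log2 fibroblast sum was 0.93 for *Tead2*, 0.90 for *Cyr61*, 0.89 for *Ankrd1*, 0.78 for *Ctgf* and 0.74 for *Wwtr1*, compared with 0.17 for *Yap1*, 0.22 for *Tead3* and -0.25 for *Tead1*. With the macrophage sum r was 0.92 for *Cyr61*, 0.91 for *Tead2* and 0.84 for *Ankrd1*, With the smooth muscle sum *Ctgf* gave the highest r of the 10, 0.93, and *Cyr61* gave 0.60, and *Wwtr1* gave 0.81 with it and with the endothelial sum. Epithelial sums were related as well, with r of -0.79 for *Ctgf* and the proximal tubule sum and of 0.80 for *Lats2* and the collecting duct sum. These values describe the 12 mice, which fall into 3 groups, with each gene and sum read from the same library, and are not tests.

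The genes most like each of 4 members over the 12 mice were sought among 15874 genes by Pearson's r of log2 CPM, again as a description. Those nearest to *Ctgf* were *Tmem119* (r = 0.98), *Slc43a3* (0.97), *Rerg* (0.97) and *Pmp22* (0.96). Those nearest to *Cyr61* were the interleukin-2 receptor gene *Il2ra* (0.96), the acute-phase gene *Serpina3n* (0.96), the tubular injury marker *Lcn2* (0.96) and the transcription factor *Lyl1* (0.95). *Lcn2* averaged 1.76 ± 0.705 CPM in WT, 82.4 ± 27.1 in RC/RC and 21.9 ± 27.0 in RC/RC:*Casp1*KO mice. *Wwtr1* was most like the translation initiation factor *Eif1a* (0.97), *Carhsp1* (0.95), *Rbpms* (0.95) and *Btf3* (0.95), and *Yap1* was most like *Gm10250*, *Exog*, *Mrps6* and *Max*, at 0.87 to 0.90.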

How the data were processed

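Per the labels, poly(A) libraries were made from kidneys of 12 mice, 4 per group. The submitters' processing notes name CASAVA 1.8, STAR and build mm10, and the counting tool, annotation and strand setting are not given in the sources used here. The deposited table holds raw read counts per gene and mouse, the gene lengths and coordinates in base pairs, and, not used here, the authors' own log2 fold changes, p-values, FPKM and normalized means. Column names give the group and not the sex or replicate number, so sexes were not compared and sex was not a term in any fit. No other series had columns in the table (0 columns).

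Each comparison was a fit of 8 mice with edgeR 4.0.16 (R 4.3.3), TMM factors, filterByExpr and the quasi-likelihood test, with a Benjamini-Hochberg adjusted p under 0.05 over all genes tested as the threshold. Displayed CPM used TMM factors of all 12 libraries, and FPKM was that CPM per kilobase of the listed gene length. Correlations used log2 CPM with a prior count of 2. The counts of no pair of mice among the 18 within-group pairs agreed within sampling noise (genes with at least 20 reads in a pair). Depth ranged from 18019819 to 24869454 reads and mitochondrial genes held 7.78% to 12.1% of them. Of the other tools, DESeq2 1.42.0 was an alternative, beside RLE factors, library size alone, no filter on low counts, 1 fit of all 12 mice, a fit with each library's trend against gene length removed (loess, span 0.5) and leaving out each mouse. The fits were tested on simulated data.

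The members and lists were chosen with earlier results of these data known. Named were all 10 members, up to 4 called genes per list, direction and comparison, and *Lats1*, *Stk3*, *Stk4*, *Sav1*, *Nf2*, *Tead4*, *Vgll4* and *Axl* throughout. *Casp1* and *Pkd1* were named as label checks. The 4 genes most like each of *Yap1*, *Wwtr1*, *Ctgf* and *Cyr61* were named as a description, and so was the most abundant gene of each marker list. *Map4k4*, *S100a11*, *Cd37*, *Xpo4*, *Gm49361*, *C1qa*, *Cd14*, *C1qb*, *Ckm*, *Myh4* and the *Fat4* value in RC/RC mice were named after their values were seen. Coordinates and promoters are of RefSeq build GRCm38.p6, whose coordinates are those of mm10.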

Additional observations from a re-analysis of the deposited data

Results flagged for a closer look

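In 57 groups of 4 mice tested with Dixon's criterion, 3 held a mouse whose gap to its nearest neighbour was large for the range of the group, and chance alone flags about 2.85. The highest RC/RC:*Casp1*KO mouse had *Tead3* at 28.4 CPM, with the next at 23.5 CPM. The highest WT mouse had *Amotl2* at 112.1 CPM, with the next at 91.8 CPM. The summed striated muscle markers of 1 WT mouse reached 5.84 CPM, with the next at 2.81 CPM.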

How the results depend on the processing

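Beside the main values, 6 other settings and the omission of each mouse were tried. Library size alone called 7 members in RC/RC against WT mice with 12.4% of all genes called, and the other settings 4 to 6 members with 1941 to 2900 genes. In RC/RC:*Casp1*KO against RC/RC mice, DESeq2 called 3207 genes and library size alone 993, with 2 members (other settings 3 to 5). Against WT, DESeq2 called 1366 genes and 3 members, and library size alone, no filter on low counts and the fit of 12 mice 1 member each, *Cyr61*. *Wwtr1* passed in RC/RC against WT mice in 3 of the 6 settings and *Ctgf* in 4. With mice left out in turn, genes called ranged from 1162 to 2440, 438 to 2789 and 108 to 547 in the 3 comparisons and members from 3 to 5, 1 to 4 and 0 to 2. The difference between groups in the log2 *Wwtr1* to *Yap1* ratio ranged from 0.25 to 0.33, from -0.28 to -0.20 and from 0.02 to 0.07. With 3 against 4 mice an exact permutation p cannot be below 0.0571.

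Small log2 fold changes turned sign. In RC/RC against WT mice these were *Tead3* with DESeq2 (-0.0025), RLE factors (-0.0023) and the gene length trend removed (-0.050), and *Tead1* with library size alone (0.056) and the length trend removed (0.040). With the length trend removed, *Tead1* was at -0.22 and *Amotl2* at -0.045 in RC/RC:*Casp1*KO against RC/RC mice, and *Tead1* at -0.18 and *Lats2* at -0.043 against WT. With library size alone, which shifted the median of all genes by 0.13 against WT, *Yap1* was at 0.052 and *Wwtr1* at 0.10 there. With mice left out, RC/RC against WT values ran from -0.029 to 0.064 for *Yap1*, -0.11 to 0.0025 for *Tead1* and -0.12 to 0.063 for *Tead3*. *Amotl2* ran from -0.066 to 0.10 in RC/RC:*Casp1*KO against RC/RC mice. Against WT, *Wwtr1* ran from -0.071 to 0.0046, *Tead1* from -0.0023 to 0.12, *Lats2* from -0.0030 to 0.15 and *Ankrd1* from -0.10 to 0.41. The cause of these shifts was not tested. Leaving 1 RC/RC mouse out of the counts for gene and marker lists was chosen after seeing the data. The lists were not refitted without any other mouse. In RC/RC:*Casp1*KO against RC/RC mice, fewer genes were called without another RC/RC mouse (438) than without that one (754). Lost calls in the lists are therefore not particular to that mouse.

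The share of calls that were higher was 75.4% in RC/RC against WT mice, 86.1% with library size alone, 64.0% with DESeq2 and 58.4% with the length trend removed. It was 62.1% in RC/RC:*Casp1*KO against RC/RC mice (82.0% with library size alone) and 55.9% against WT (79.8% and, with the length trend removed, 39.7%). No paired analysis was possible because the columns carry no replicate number. Depth limits *Tead2* and *Ankrd1*, covered by at least 48 and 31 reads.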
